A study of Homo sapiens with 9 samples.

Results

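Breast cancer stem cell markers are the genes whose proteins are used to sort or to recognise the small, tumor-initiating fraction of breast cancer cells, or that keep mammary cells in an undifferentiated state. The 10 genes described here were CD44, CD24, ALDH1A1, ALDH1A3, PROM1, SOX2, SOX4, SOX9, PROCR and BMI1. All 10 were found among the 26485 genes listed. Like the gene lists below, they were chosen by name with earlier results of these data known. They were measured in MDA-MB-231, an established line of triple-negative breast cancer cells, which lack the estrogen and progesterone receptors and HER2 amplification. The cells were grown in DMEM with fetal bovine serum, and every group carried a stably expressed short hairpin RNA (shRNA): a non-specific hairpin (NS shRNA) in the controls, and either of 2 independent hairpins against ASAH1 (ASAH1 shRNA #1 and ASAH1 shRNA #2). Each of the 3 groups held 3 libraries, described as biological replicates. ASAH1 encodes acid ceramidase, the lysosomal enzyme that splits ceramide into sphingosine and a fatty acid. The model is a single cell line in culture, so shares of stem-like cells were not measured. In bulk RNA a smaller number of cells with a transcript and less of it per cell cannot be told apart.

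The markers come from different routes into the stem cell state. CD44, a receptor for the matrix polysaccharide hyaluronan, and CD24, a small glycolipid-anchored surface protein, are read together: sorted breast cancer cells that have CD44 and little or no CD24 form tumors efficiently in mice. ALDH1A1 and ALDH1A3 oxidise retinaldehyde to retinoic acid and underlie the dye assay that marks cells with high aldehyde dehydrogenase activity, and PROM1 (CD133) and PROCR (the endothelial protein C receptor) are surface proteins used in sorting. SOX2, SOX4 and SOX9 are transcription factors with the same type of DNA-binding domain, and BMI1 is a subunit of Polycomb repressive complex 1, which places ubiquitin on histone H2A and keeps genes silent.

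The total number of reads assigned to genes ranged from 30989598 to 34867548 in the NS shRNA libraries, from 23806003 to 39791698 in the ASAH1 shRNA #1 libraries and from 35653318 to 49659106 in the ASAH1 shRNA #2 libraries. ASAH1 itself fell in both comparisons, by 1.76 on the log2 scale (SE 0.050, adjusted p = 9.49e-09) with shRNA #1 and by 2.63 (SE 0.057, adjusted p = 5.42e-10) with shRNA #2, and no library of either hairpin overlapped the NS shRNA libraries. Of the luminal markers checked, ELF5 and the hormone receptor genes ESR1 and PGR stood at or under 3 reads in every library. The other luminal genes were expressed, KRT8 at 3473 to 14108 reads, KRT18 at 4881 to 20748 and KRT19 at 3410 to 11092. EPCAM, GATA3 and MUC1 had fewer reads than these. VIM, the mesenchymal intermediate filament, was among the abundant transcripts with 41873 to 72608 reads. Of the other cell types checked, CD3E (leukocyte), CDH5 (endothelium) and DCN (fibroblast) stood at or under 3 reads in every library, while other genes of those lists were expressed, PECAM1 at 39 to 102 reads, COL1A1 at 545 to 965, PDGFRB at 351 to 1066 and LUM at 31 to 140. The summed marker lists differed between the hairpin and NS shRNA libraries, except the leukocyte list with shRNA #2. The gene counts below stand against the shares of all genes tested with an adjusted p below 0.05. These were 32.8% higher and 33.3% lower with shRNA #1, and 33.5% higher and 33.4% lower with shRNA #2. In counts scaled to library size (CPM), the summed luminal markers ranged from 1103 to 1234 in the NS shRNA libraries, from 548 to 625 with shRNA #1 and from 791 to 926 with shRNA #2. Of the 6 of 9 luminal genes that could be tested, 5 were lower and 1 higher with shRNA #1, and 3 were lower and 2 higher with shRNA #2. The 6 basal markers together ranged from 205 to 214, from 151 to 157 and from 171 to 189 CPM, with 4 of 5 tested lower with shRNA #1 and 2 of 5 with shRNA #2. Nearly all of that sum was MYLK (mean 146 CPM with NS shRNA) and ACTA2 (55.6 CPM). KRT5 had 4.12 CPM there, and TP63, KRT17 and KRT14 had less. The 4 mesenchymal genes together ranged from 3447 to 3527, from 3642 to 3710 and from 2497 to 2547, with 3 higher and 1 lower with shRNA #1 and 2 in each direction with shRNA #2. The 4 leukocyte genes together, nearly all of it CD14, ranged from 27.1 to 33.1, from 6.55 to 7.44 and from 27.0 to 31.2 CPM, and CD14 was the only tested gene of the list, lower with shRNA #1. The 4 fibroblast genes together ranged from 52.8 to 54.2, from 39.8 to 43.7 and from 27.6 to 29.3 CPM, with 2 of 3 tested lower in each comparison. The 3 endothelial genes together ranged from 3.01 to 3.27, from 1.74 to 2.81 and from 1.37 to 1.97 CPM, and PECAM1, the only gene tested, was lower in both. Any part of these shifts in the results below was not tested.

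In NS shRNA cells the 10 markers spanned nearly the whole range of expression. Per length of transcript, CD44 was by far the most abundant, at 154 ± 9.2 RPKM (reads scaled by transcript length and library size; SD, n = 3), and its normalized count exceeded that of 99.7% of the listed genes. SOX9 followed at 25.4 ± 1.2, PROCR at 17.8 ± 1.7 and ALDH1A3 at 14.1 ± 1.1 RPKM, and no library of any of these 4 genes overlapped those of the next. SOX4 (0.887 ± 0.083) and BMI1 (0.810 ± 0.21) came next on the same scale, with overlapping libraries. CD24 (0.176 ± 0.096) and SOX2 (0.149 ± 0.0999) were lower still and overlapped too. The lengths used are those of whole main transcripts. In BMI1, 1000 of 3540 bases are shared with another gene, and 35.3% of the 76-base stretches of CD24 occur elsewhere in the genome. The levels of BMI1 and CD24 may thus be understated. ALDH1A1 and PROM1 were at the edge of detection. Of the 10 genes that the name of the set promises, the line thus had CD44, SOX9, PROCR and ALDH1A3 in quantity, SOX4 and BMI1 at a low level, and hardly any transcript of CD24, SOX2, ALDH1A1 or PROM1.

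**Figure D1:**
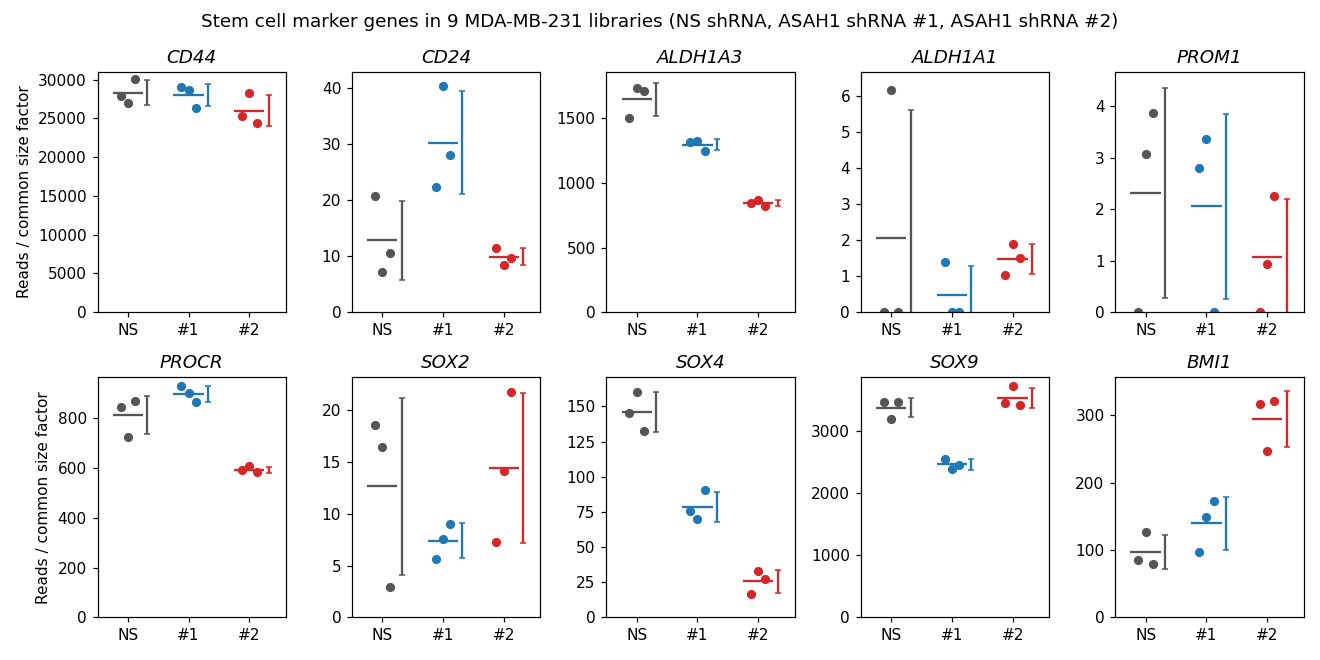
Levels of the 10 marker genes in each of the 9 libraries, as reads divided by a size factor common to all 9 (vertical axes, linear, each starting at 0). Points are libraries of NS shRNA (NS), ASAH1 shRNA #1 (#1) and ASAH1 shRNA #2 (#2), horizontal lines are group means and vertical bars the mean ± SD (n = 3, cut at 0). SOX4 steps down from NS to #1 to #2, ALDH1A3 does the same, BMI1 is high in the #2 libraries (247 to 321), and CD44 stays between 24426 and 30088 in all of them.

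The comparisons asked whether these genes changed in cells carrying either ASAH1 hairpin. With ASAH1 shRNA #1, 7 of the 10 markers were abundant enough to be tested (a mean of at least 10 normalized counts over the 6 libraries) and 4 of the 7 passed the test, CD24 upwards and ALDH1A3, SOX4 and SOX9 downwards. Among all 14341 genes tested there, 66.1% passed, 32.8% upwards and 33.3% downwards. With ASAH1 shRNA #2, 8 markers were tested and 4 passed, BMI1 upwards and ALDH1A3, SOX4 and PROCR downwards, against 66.9% of all 14250 genes, 33.5% upwards and 33.4% downwards. The shares of tested markers that passed, 57.1% and 50%, were thus no larger than those of genes in general. The median log2 fold change of the tested markers was -0.0162 with shRNA #1 and -0.181 with shRNA #2, against 0.00128 and 0.0128 for all genes. Both comparisons use the same 3 NS shRNA libraries, scaled separately, so a chance deviation in the controls enters both.

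**Figure D2:**
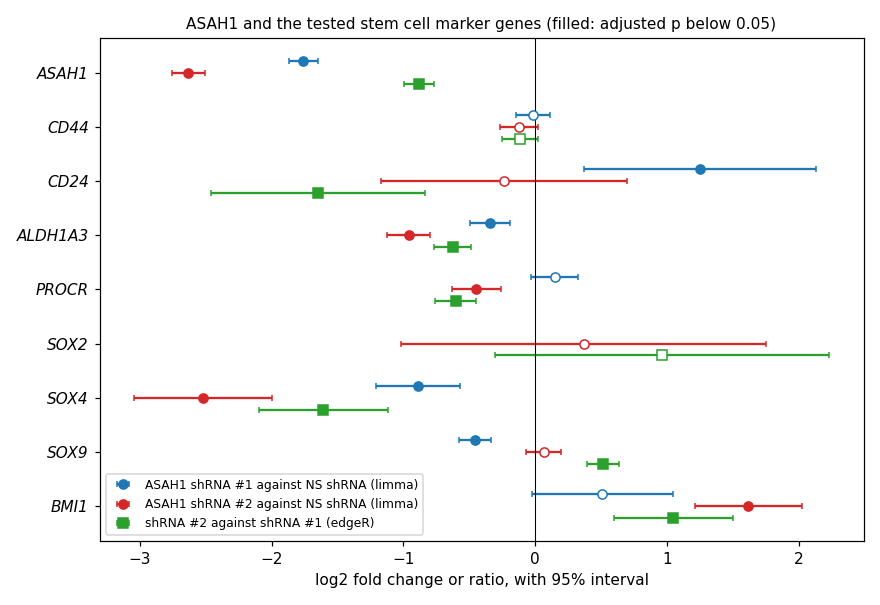
Log2 fold changes of ASAH1 and of the marker genes against NS shRNA for ASAH1 shRNA #1 (blue circles) and ASAH1 shRNA #2 (red circles), and the log2 ratio of shRNA #2 to shRNA #1 (green squares), with 95% intervals along the horizontal axis and genes on the vertical axis. Filled symbols passed an adjusted p of 0.05. SOX4 and ALDH1A3 lie to the left of 0 in all 3 contrasts, CD44 lies close to 0 in all 3, and SOX2 could not be tested with shRNA #1.

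SOX4, BMI1 and ALDH1A3 had the largest changes among the markers that passed with ASAH1 shRNA #2. Their promoters are shown because these 3 genes differ in the direction in which they moved: SOX4 and ALDH1A3 fell with both hairpins, and BMI1 rose with shRNA #2. Each sequence is the 250 bases before the transcription start that RefSeq gives on GRCh38.p14, read 5′ to 3′ on the strand of the gene. They lie at chr6:21593501-21593750 (SOX4), chr15:100879581-100879830 (ALDH1A3) and chr10:22320849-22321098 (the first of 2 BMI1 starts), all on the plus strand. Capitals mark matches on either strand to the GC box letters GGGCGG, the CCAAT box letters CCAAT and the E-box letters CACGTG, with overlapping GC boxes counted separately.
SOX4: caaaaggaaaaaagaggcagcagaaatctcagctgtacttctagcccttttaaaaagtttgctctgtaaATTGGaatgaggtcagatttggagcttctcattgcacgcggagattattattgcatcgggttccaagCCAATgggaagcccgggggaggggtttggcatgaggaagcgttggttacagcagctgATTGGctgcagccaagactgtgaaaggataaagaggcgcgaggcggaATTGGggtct
ALDH1A3: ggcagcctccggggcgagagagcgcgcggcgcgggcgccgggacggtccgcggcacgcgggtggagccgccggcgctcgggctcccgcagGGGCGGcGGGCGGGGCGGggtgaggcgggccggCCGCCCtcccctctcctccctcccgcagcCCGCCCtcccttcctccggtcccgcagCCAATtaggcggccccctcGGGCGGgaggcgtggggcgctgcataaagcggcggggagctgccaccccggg
BMI1: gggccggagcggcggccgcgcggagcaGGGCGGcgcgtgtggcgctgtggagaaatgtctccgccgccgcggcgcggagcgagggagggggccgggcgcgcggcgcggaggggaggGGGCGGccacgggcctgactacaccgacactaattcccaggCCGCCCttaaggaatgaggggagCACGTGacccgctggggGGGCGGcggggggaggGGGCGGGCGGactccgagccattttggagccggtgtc
The SOX4 window held 4 CCAAT boxes and no GC box, with 48.8% G or C. The ALDH1A3 window held 6 GC boxes and 1 CCAAT box, with 82.4% G or C, and the BMI1 window held 6 GC boxes and 1 E-box, with 76.8% G or C. Of the 35116 RefSeq promoter windows of this length, 42.6% held a GC box, 32% a CCAAT box and 6.34% this E-box. These are matches of letters only, and no binding was measured here.

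CD44 is on chromosome 11 (hg38, 35138882 to 35232402, plus strand), and its main transcript has 18 exons. Its normalized counts were 26698, 25762 and 28779 in the NS shRNA libraries and 27704, 27371 and 25241 with ASAH1 shRNA #1, so the groups overlapped. The log2 fold change was -0.016 (SE 0.056, 95% interval -0.142 to 0.110, adjusted p = 0.813). In the table of shRNA #2 the counts were 28809, 27965 and 31030 with NS shRNA and 26168, 29129 and 25254 with the hairpin, where 2 of the hairpin libraries were below every control and 1 was not. The fold change there was -0.126 (SE 0.065, 95% interval -0.270 to 0.019, adjusted p = 0.111). It passed when the second shRNA #2 library was left out (-0.186, adjusted p = 0.0234) and when libraries were scaled by their upper quartile (-0.171, adjusted p = 0.0415), a scaling that also moved the median of all genes to -0.033. These are sums over all CD44 isoforms, and the standard and variant forms were not separated.

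CD24 (chromosome 6, 106969831 to 106975627, minus strand) was a rare transcript in this line. It had 19.9, 6.87 and 10.2 normalized counts in the NS shRNA libraries and 21.4, 38.6 and 26.9 with ASAH1 shRNA #1. The lowest hairpin library was just above the highest control, and the log2 fold change was 1.25 (SE 0.39, 95% interval 0.37 to 2.13, adjusted p = 0.0181), larger than that of 92.3% of genes tested. The call was lost when NS shRNA replicate 2 was left out (0.93, adjusted p = 0.0652) or shRNA #1 replicate 2 (1.03, adjusted p = 0.0823). With shRNA #2 the counts were 21.5, 7.46 and 11.0 in the controls and 11.9, 8.75 and 10.1 with the hairpin, which lay inside the range of the controls (log2 fold change -0.24, 95% interval -1.17 to 0.69, adjusted p = 0.637). In reads, CD24 had 7 to 19 per library with NS shRNA, 16 to 48 with shRNA #1 and 9 to 13 with shRNA #2, so counting error alone is large. Of the 2081 stretches of 76 bases in its main transcript, 35.3% occur elsewhere in the genome as well, against at most 3.29% for any other marker, and reads from those stretches cannot be placed uniquely.

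The ratio of CD44 to CD24 within a library uses the 2 genes of the sorted phenotype, but in bulk RNA and not as surface protein on single cells. It was taken after adding 1 to each normalized count, so it depends slightly on how a library was scaled. On the log2 scale it was 10.32, 11.68 and 11.33 in the NS shRNA libraries and 10.27, 9.43 and 9.82 with ASAH1 shRNA #1, lower by 1.27 on average and with every hairpin library under every control. The two-sided exact permutation test gave p = 0.1, the smallest that 3 libraries against 3 allow. With shRNA #2 the ratios were 10.99, 11.55 and 11.15, inside the range of the same controls (10.33, 11.69 and 11.34 in that table), with a difference of 0.11 (exact permutation p = 0.9). Its sign turned when NS shRNA replicate 1 was left out (-0.287) or shRNA #2 replicate 2 (-0.0473). CD24 counted 7 to 48 reads in these libraries, against 20719 or more for CD44. With shRNA #1 the log2 fold change was -0.016 for CD44 and 1.25 for CD24, so the lower ratio mostly restates the change in CD24.

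CD44's ligand and partners were mixed. Of 13 genes for hyaluronan synthesis and turnover, for other CD44 ligands and anchors and for the splicing of CD44, 12 were tested with ASAH1 shRNA #1, where 5 were higher and 4 lower, and 10 with shRNA #2, where 2 were higher and 5 lower (medians 0.277 and -0.158). These counts, and those of the lists that follow, stand against 32.8% of all genes higher and 33.3% lower with shRNA #1, and 33.5% higher and 33.4% lower with shRNA #2. The genes named from each list are those that passed in both comparisons, so they do not show the direction of the list. HYAL2, a hyaluronidase of the cell surface, went from 1471 ± 20 to 1070 ± 30 normalized counts with shRNA #1 (SD, n = 3; log2 fold change -0.46, adjusted p = 4.66e-05) and from 1590 ± 26 to 832 ± 40 with shRNA #2 (-0.93, adjusted p = 7.54e-07). HYAL1, another hyaluronidase, had log2 fold changes of 0.42 (adjusted p = 0.253) and 0.50 (adjusted p = 0.227), which did not pass. CEMIP, a hyaluronan-binding protein needed for its depolymerisation, changed by -0.68 (adjusted p = 6.77e-05) and -0.65 (adjusted p = 3.81e-05). ESRP2, an epithelial splicing factor that promotes the variant exons of CD44, rose by 0.68 (adjusted p = 5.26e-05) and 0.44 (adjusted p = 0.00166), and HMMR, a hyaluronan-binding protein of the mitotic spindle, rose by 0.25 with shRNA #1 (adjusted p = 0.00966) and changed by -0.37 with shRNA #2 (adjusted p = 0.00709). The largest changes of this list were with shRNA #1, in 2 genes singled out after their values were seen. The hyaluronan synthase HAS2 had 35.6, 30.4 and 30.5 normalized counts with NS shRNA and 221, 237 and 205 with shRNA #1 (log2 fold change 2.74, adjusted p = 2.28e-07), while with shRNA #2 it changed by -0.024 (adjusted p = 0.930). The difference between the hairpins was itself called (log2 ratio of #2 to #1 -2.78, edgeR adjusted p = 5.07e-08). ESRP1, the paralog of ESRP2, had 1, 0 and 2 reads with NS shRNA, 25, 33 and 35 with shRNA #1 and 4, 2 and 13 with shRNA #2.

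ALDH1A3, the retinaldehyde dehydrogenase that this line expressed (chromosome 15, 100877714 to 100916626, plus strand), fell with both hairpins. It had 1435, 1654 and 1636 normalized counts with NS shRNA and 1254, 1270 and 1197 with ASAH1 shRNA #1, and every hairpin library was below every control (log2 fold change -0.34, SE 0.067, adjusted p = 0.00151). With shRNA #2 the controls were at 1548, 1795 and 1764 and the hairpin libraries at 879, 893 and 849, a larger step of -0.96 (SE 0.074, adjusted p = 1.41e-06) that exceeded the change of 84.8% of genes tested. ALDH1A1, the other isoform credited with the dye assay, was nearly absent. It had 0, 6 and 0 reads in the NS shRNA libraries, 1, 0 and 0 with shRNA #1 and 1, 2 and 2 with shRNA #2, and a count of 0 allows up to 3 reads, which is 0.0604 to 0.126 CPM in these libraries. No difference in ALDH1A1 was detectable at this depth.

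Other aldehyde dehydrogenases, which oxidise a wide range of aldehydes, were mostly lower. Of 17 listed, 15 were tested with ASAH1 shRNA #1, with 10 lower and 1 higher, and 14 with shRNA #2, with 12 lower and 1 higher, where 33.3% and 33.4% of all genes tested were lower. Their median log2 fold changes were -0.356 and -0.489. ALDH3B1, an enzyme for lipid-derived aldehydes, had 2516, 2486 and 2454 normalized counts with NS shRNA against 1016, 1034 and 1057 with shRNA #1 (log2 fold change -1.26, adjusted p = 6.06e-08), and 2715, 2698 and 2646 against 516, 498 and 539 with shRNA #2 (-2.37, adjusted p = 2.51e-09). The replicates lay close together and the groups far apart. ALDH1L1, a cytosolic enzyme of folate metabolism, changed by -1.36 (adjusted p = 3.66e-05) and -2.41 (adjusted p = 4.30e-07). ALDH3A2, which oxidises long-chain fatty aldehydes including the one made when sphingosine-1-phosphate is cleaved, changed by -1.56 (adjusted p = 4.41e-08) and -1.01 (adjusted p = 3.16e-07), and ALDH5A1, the succinic semialdehyde dehydrogenase, by -1.50 (adjusted p = 7.29e-07) and -0.49 (adjusted p = 0.000618).

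The genes that make, bind and read retinoic acid did not move as a block. Of 13 listed, 8 were tested in each comparison, with 4 higher and 3 lower with ASAH1 shRNA #1 and 4 higher and 2 lower with shRNA #2 (medians 0.0825 and 0.235). CRABP2, which carries retinoic acid to its nuclear receptors, rose by 0.60 (adjusted p = 0.00274) and 1.18 (adjusted p = 5.29e-06). CYP26B1, which degrades retinoic acid, rose by 0.53 (adjusted p = 0.000570) and 0.68 (adjusted p = 6.46e-05), and the receptor gene RARA by 0.55 (adjusted p = 9.02e-05) and 0.40 (adjusted p = 0.000941). DHRS3, which turns retinaldehyde back into retinol, changed by -0.89 (adjusted p = 3.55e-06) and -0.75 (adjusted p = 9.64e-06).

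**Figure D3:**
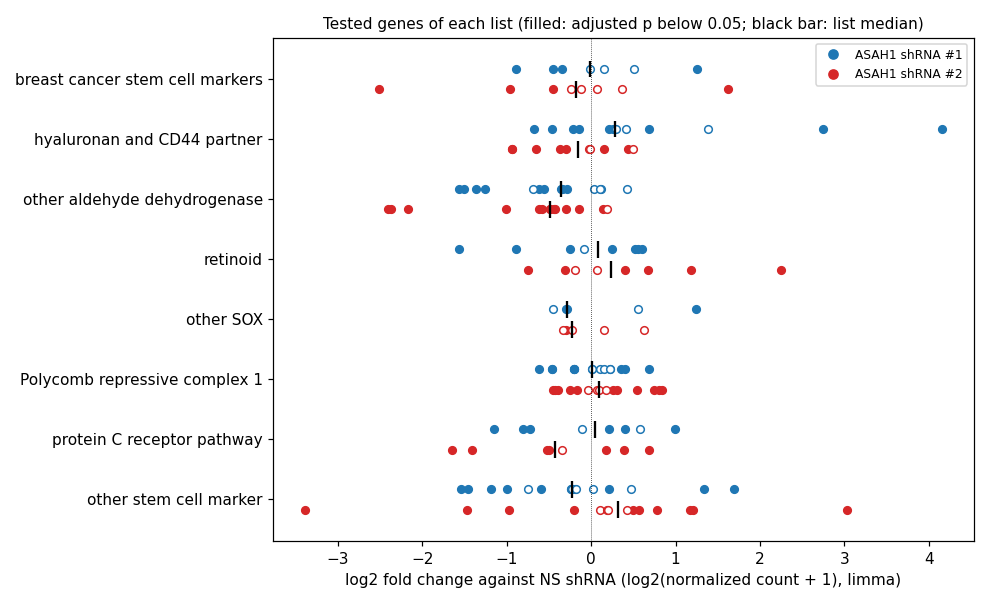
Log2 fold changes against NS shRNA (horizontal axis, on log2 of the normalized count plus 1) of every tested gene of the marker list and of the other 7 lists (vertical axis), with ASAH1 shRNA #1 in blue and ASAH1 shRNA #2 in red. Filled points passed an adjusted p of 0.05 and black bars are list medians. The aldehyde dehydrogenases lie mostly to the left of 0 (medians -0.356 and -0.489), while the other lists spread to both sides.

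PROM1, a cholesterol-binding glycoprotein of membrane protrusions, had 0, 3 and 4 reads with NS shRNA, 2, 4 and 0 with ASAH1 shRNA #1 and 0, 1 and 3 with ASAH1 shRNA #2. These libraries were at or near the 3 reads that a count of 0 allows, and no difference was detectable. PROCR binds protein C, promotes its activation on the cell surface and marks a population of mouse mammary stem cells. It lies on chromosome 20 (35172072 to 35216240, plus strand). Its normalized counts were 809, 691 and 831 with NS shRNA and 885, 860 and 828 with shRNA #1. The groups overlapped by a single library, and the log2 fold change of 0.147 (SE 0.080, 95% interval -0.032 to 0.326, adjusted p = 0.131) did not pass. With shRNA #2 the controls were at 873, 750 and 896 and the hairpin libraries at 611, 626 and 603, all lower (log2 fold change -0.45, SE 0.083, adjusted p = 0.000750).

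The proteins that work with PROCR also went both ways. Of 9 listed genes, 8 were tested in each comparison, with 3 higher and 3 lower with ASAH1 shRNA #1 and 3 higher and 4 lower with ASAH1 shRNA #2 (medians 0.0517 and -0.423). PROS1, the cofactor of activated protein C, had 1590, 1729 and 1790 normalized counts with NS shRNA and 762, 798 and 741 with shRNA #1, less than every control (log2 fold change -1.15, adjusted p = 4.86e-07), and changed by -1.65 (adjusted p = 7.85e-08) with shRNA #2. THBD, the thrombin receptor needed to activate protein C, changed by -0.72 (adjusted p = 1.35e-06) and -0.50 (adjusted p = 1.78e-05). TFPI, the inhibitor of the tissue factor pathway, changed by -0.80 (adjusted p = 1.71e-06) and -0.53 (adjusted p = 2.23e-05). F3, tissue factor itself, which starts clotting, rose by 0.21 (adjusted p = 0.00131) and 0.69 (adjusted p = 7.42e-07).

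SOX4, a transcription factor linked to the epithelial-mesenchymal transition downstream of TGF-beta, is a gene of 1 exon on chromosome 6 (21593751 to 21598619, plus strand) and had the largest change among the tested markers with ASAH1 shRNA #2. With shRNA #1 the change of CD24 was larger. SOX4 had 139, 153 and 126 normalized counts with NS shRNA and 72.2, 66.7 and 86.5 with ASAH1 shRNA #1, well separated from the controls (log2 fold change -0.89, SE 0.14, adjusted p = 0.000404). With shRNA #2 the controls stood at 150, 166 and 136 and the hairpin libraries at 17.3, 34.01 and 27.9 (log2 fold change -2.52, SE 0.24, 95% interval -3.04 to -1.99, adjusted p = 5.69e-06). That change was larger in size than that of 98.5% of all genes tested, and it rests on 16, 35 and 36 reads in the hairpin libraries.

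SOX9, which maintains mammary stem and luminal progenitor cells (chromosome 17, 72121020 to 72126416, plus strand), moved with 1 hairpin. Its normalized counts were 3311, 3048 and 3313 with NS shRNA and 2438, 2282 and 2342 with ASAH1 shRNA #1, all lower (log2 fold change -0.45, SE 0.054, adjusted p = 5.89e-05). With shRNA #2 they were 3573, 3309 and 3572 in the controls and 3579, 3840 and 3529 with the hairpin, where the groups overlapped (0.066, 95% interval -0.066 to 0.199, adjusted p = 0.346). SOX2, a core pluripotency factor, was rare and variable. It had 17, 16 and 3 reads with NS shRNA and 4, 9 and 9 with shRNA #1, a mean below the minimum for testing. With shRNA #2 it had 7, 15 and 29 reads, and its log2 fold change of 0.37 (95% interval -1.02 to 1.75, adjusted p = 0.620) turned to -0.38 without NS shRNA replicate 3, so neither a loss nor a gain of this gene could be detected.

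Most other genes of the SOX family were too low to test. Of 16 listed, 5 were tested in each comparison, and 1 was higher and 2 lower with ASAH1 shRNA #1, with 1 lower with ASAH1 shRNA #2 (medians -0.288 and -0.226). The count with shRNA #2 was 2 when shRNA #2 replicate 1 or replicate 2 was left out. SOX13, the gene that passed in both, went from 1791 ± 62 to 1461 ± 25 normalized counts (SD, n = 3) with shRNA #1 (log2 fold change -0.29, adjusted p = 0.000787) and from 1935 ± 60 to 1579 ± 39 with shRNA #2 (-0.29, adjusted p = 0.00123).

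BMI1 (chromosome 10, 22321099 to 22331484, plus strand) was the marker that rose with ASAH1 shRNA #2. Its normalized counts were 88.1, 131 and 81.6 with NS shRNA and 328, 255 and 332 with the hairpin, where every library lay above every control (log2 fold change 1.62, SE 0.18, 95% interval 1.21 to 2.02, adjusted p = 2.15e-05). With shRNA #1 the controls were at 81.6, 121 and 75.7 and the hairpin libraries at 92.3, 143 and 165, overlapping (0.51, 95% interval -0.026 to 1.05, adjusted p = 0.0852). This value passed when NS shRNA replicate 2 was left out (0.72, adjusted p = 0.0330) or shRNA #1 replicate 1 (0.75, adjusted p = 0.0104). Of the 3540 bases of the main BMI1 transcript, 1000 are also exons of the readthrough gene COMMD3-BMI1 in the GENCODE annotation, which was listed at 0 in all 9 libraries, so the reads credited to BMI1 may come from the remaining 2540 bases only. The authors' own gene models were not used here.

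Other genes for subunits of Polycomb repressive complex 1, with the PCGF genes counted among them, did not follow a single direction. All 15 were tested, with 4 higher and 6 lower with ASAH1 shRNA #1 and 6 higher and 5 lower with ASAH1 shRNA #2 (medians 0.011 and 0.0911). PHC2, a polyhomeotic subunit that clusters the complex, had 5185, 5026 and 5007 normalized counts with NS shRNA and 8067, 8098 and 8273 with shRNA #1, a clear separation (log2 fold change 0.68, adjusted p = 8.47e-07), and rose by 0.84 (adjusted p = 1.96e-07) with shRNA #2. CBX7, a chromobox subunit that binds methylated histone H3, changed by -0.61 (adjusted p = 3.66e-05) and -0.45 (adjusted p = 0.000276). RING1, a catalytic partner of BMI1, rose by 0.36 (adjusted p = 0.000345) and 0.26 (adjusted p = 0.00445).

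Of 24 other genes used as markers of mammary, cancer or pluripotent stem cells, 16 were tested with ASAH1 shRNA #1, with 3 higher and 6 lower, and 14 with ASAH1 shRNA #2, with 6 higher and 4 lower (medians -0.23 and 0.313). KLF4, a reprogramming factor, had 1910, 2068 and 2084 normalized counts with NS shRNA and 5323, 5086 and 4943 with shRNA #1, far above the controls (log2 fold change 1.34, adjusted p = 6.93e-08), and rose by 1.20 (adjusted p = 6.76e-08) with shRNA #2. NES, the intermediate filament nestin of neural progenitors, had 863, 1000 and 901 normalized counts with NS shRNA in the table of shRNA #2 and 91.7, 74.8 and 96.2 with that hairpin (-3.39, adjusted p = 8.69e-09), and changed by -0.995 (adjusted p = 4.40e-06) with shRNA #1. CXCR4, a chemokine receptor for homing, changed by -1.54 (adjusted p = 4.05e-06) and -1.48 (adjusted p = 3.17e-07). ABCG2, the drug pump behind the dye-excluding side population, rose by 1.69 (adjusted p = 1.75e-06) and 0.78 (adjusted p = 0.000454). NGFR, a neurotrophin receptor singled out after its values were seen, went from 305, 308 and 251 normalized counts to 2407, 2114 and 2545 with shRNA #2 (log2 fold change 3.03, adjusted p = 7.11e-09), and with shRNA #1 its log2 fold change was -0.23 (adjusted p = 0.163). The named stem cell markers outside the chosen 10 thus went up and down as well.

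The hairpins were compared directly on the reads of all 9 libraries. Of the 8 markers tested there, 6 differed between ASAH1 shRNA #2 and ASAH1 shRNA #1, 2 higher and 4 lower with shRNA #2, while 63.3% of all 14714 genes differed, 31.1% higher and 32.1% lower. SOX4 and ALDH1A3, which fell with both hairpins, fell further with shRNA #2, by 1.61 (SE 0.22, edgeR adjusted p = 7.22e-05) and 0.63 (SE 0.064, adjusted p = 6.08e-06) on the log2 scale relative to shRNA #1. BMI1 was higher by 1.05 (SE 0.21, adjusted p = 0.000926) and SOX9 by 0.51 (SE 0.056, adjusted p = 9.37e-06) with shRNA #2. PROCR and CD24 were lower with shRNA #2, with log2 ratios of -0.60 (SE 0.071, adjusted p = 1.98e-05) and -1.65 (SE 0.37, adjusted p = 0.00218). CD44 (log2 ratio -0.115, 95% interval -0.248 to 0.018, adjusted p = 0.119) and SOX2 (0.96, 95% interval -0.30 to 2.23, adjusted p = 0.164) did not pass. The CD44 ratio did pass without shRNA #2 replicate 2 (-0.176, adjusted p = 0.0164) and with upper quartile scaling (-0.197, adjusted p = 0.0131). ASAH1 itself was lower with shRNA #2 than with shRNA #1 (log2 ratio -0.88, SE 0.051, adjusted p = 6.82e-08).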

How the data were processed

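RNA of 9 MDA-MB-231 cultures was sequenced as single-end 76-base reads. Per the labels and methods, Trimmomatic 0.36 was used by the authors for trimming, STAR 2.7.1a for alignment to hg38, HTSeq for counts per gene and DESeq2 1.28 for normalization, separately for each ASAH1 hairpin with the NS shRNA libraries. The deposited values are normalized counts, a signal equal to reads divided by a size factor; dividing by the step between values gave whole reads for 100% of values (tolerance 0.05). The authors' fold changes and p-values were not used. RNA selection is given as oligo-dT in the labels and as ribosomal depletion in the design text. A count of 0 was taken to allow up to 3 reads (counting error only).

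For each hairpin, limma 3.58.1 with an intensity trend (R 4.3.3) tested log2(normalized count + 1), two-sided, for genes with a mean of at least 10 over 6 libraries, with Benjamini-Hochberg adjustment over all genes tested and a threshold of 0.05; folds of low genes are understated by the added 1. Differences between hairpins were tested with edgeR 4.0.16 (quasi-likelihood, TMM) on recovered reads of all 9 libraries. Code was tested on simulated data. Other settings were DESeq2 1.42.0 and edgeR on recovered reads, upper quartile scaling, other filters and pseudocounts, a replicate block and leaving out each library. The members and lists were chosen with earlier results of these data known. Named genes were all members, ASAH1 and, per list, up to 4 genes passing in both comparisons with a mean of at least 50 and the largest mean change (1 such gene is not reported here); no member met the rule for naming similarly behaving genes. Positions are from GENCODE on hg38; 9 of 10 members matched a RefSeq promoter.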

Additional observations from a re-analysis of the deposited data

Results flagged for a closer look

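For 6 of the 8 markers tested, the effect of ASAH1 shRNA #2 differed from that of ASAH1 shRNA #1 in a direct test on all 9 libraries (edgeR, adjusted over 14714 genes). Among all genes in that test, 63.3% differed, so a difference between the hairpins is not particular to the markers. As shRNA #2 over shRNA #1 on the log2 scale, the values were -1.651 for CD24, -0.6252 for ALDH1A3, -1.607 for SOX4, 0.5138 for SOX9, -0.6021 for PROCR and 1.05 for BMI1. ALDH1A3 and SOX4 fell with both hairpins and differed in size. CD24 and SOX9 passed against NS shRNA with shRNA #1 and not with shRNA #2, and PROCR and BMI1 passed with shRNA #2 and not with shRNA #1. The knockdown of ASAH1 was also deeper with shRNA #2 (log2 ratio -0.88). Its part in these differences was not tested, and the depth of knockdown and other differences between the hairpins cannot be told apart.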

How the results depend on the processing

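Over all alternatives run, 67 of 73 single-gene results kept their direction and their side of the threshold, and 20 of 23 summary results did so or, for counts of genes, stayed within 1.5 times their value. For the CD44 to CD24 ratios only the direction could change, since their exact permutation test could not reach a p of 0.05. The markers passing numbered 3 to 5 with ASAH1 shRNA #1, 4 to 5 with shRNA #2 and 5 to 7 between the hairpins, and the other aldehyde dehydrogenases passing 10 to 11 and 10 to 14. The exceptions were CD24 and BMI1 with ASAH1 shRNA #1, CD44 in all 3 contrasts and SOX2 with ASAH1 shRNA #2 among the genes, and the other SOX genes in both comparisons and the CD44 to CD24 ratio with shRNA #2 among the summaries. The number of other SOX genes that passed was 5 with shRNA #1 and 4 with shRNA #2 without a filter on low values (3 and 1 in the report); with shRNA #2 it was 2 under limma without the trend, edgeR, DESeq2 and a single fit of all 9 libraries, and 1 to 2 when each library was left out. The CD44 change with shRNA #1 turned to 0.0285 without NS shRNA replicate 3 and 0.0257 without shRNA #1 replicate 3 (range -0.0514 to 0.0285 when each library was left out), and the SOX2 change with shRNA #2 to -0.384 without NS shRNA replicate 3 (range -0.384 to 0.786). The CD44 to CD24 ratio with shRNA #2 ranged from -0.287 to 0.396 when each library was left out, at -0.0473 without shRNA #2 replicate 2. The cause of these shifts was not tested.

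Libraries with the same replicate number did not deviate together in the comparisons with NS shRNA (correlations -0.269 to -0.102 between NS shRNA and shRNA #1, and -0.304 to -0.0878 between NS shRNA and shRNA #2), except weakly between shRNA #1 and shRNA #2 (0.0533, 0.0931 and 0.201, where every library correlated best with its own number, a hint from the data and not the design), and not every pair was over 0.1, so they were taken to share only a number. With the replicate number as a block, 4 markers passed with shRNA #1, 4 with shRNA #2 and 6 between the hairpins, and 8237 and 8526 genes passed in all, against 9479 and 9538 without the block. Upper quartile scaling moved the share of upward calls from 49.6% to 50.4% with shRNA #1 and from 50.1% to 45.9% with shRNA #2. Low counts limit CD24, SOX2, ALDH1A1 and PROM1, each with under 50 reads in every library.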
